A study of Mus musculus with 8 samples.

Results

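The response to lipopolysaccharide (LPS) was described in RAW264.7 cells, a mouse macrophage-like line, in which the adaptor gene Dab2 was knocked down by a stably expressed short hairpin RNA. It was read from 4 of the 8 arrays of the series: 2 of shDab2 cells given LPS at 100 ng/ml for 6 h, and 2 of shDab2 cells given PBS, the vehicle. The other 4 arrays held cells with a hairpin against luciferase (shLuc) under the same treatments, 2 with PBS and 2 with LPS, and served for the comparison with a line whose Dab2 was not targeted. Both lines were made from RAW264.7 cells by lentiviral infection. The arrays covered 1 stable shDab2 line with 1 hairpin (shDab2-B), so that an effect of the line cannot be told apart from an effect of the knockdown. The shDab2 arrays carried 21876 probes with 1 gene symbol, which stood for 19084 genes, and every one of these genes was tested for the difference between LPS and PBS.

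LPS, a component of the outer membrane of Gram-negative bacteria, is bound by CD14 and by the TLR4/MD-2 complex on macrophages. At the cell membrane TLR4 signals through the adaptors TIRAP and MyD88 to NF-kB and the MAP kinases, which turn on genes of cytokines, chemokines and their own inhibitors. After endocytosis the receptor signals through TRAM and TRIF to TBK1, IKKε and IRF3, which turn on the gene of interferon β, and the secreted interferon in turn induces antiviral genes through its receptor. Dab2 is an endocytic adaptor protein that binds clathrin and cargo receptors.

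Values are background-subtracted fluorescence intensities in arbitrary units after quantile normalization of the 8 arrays together. A log2 fold change was computed on log2(intensity + 50), which understates the change of dim genes. Folds without the log2 scale are ratios of the geometric mean intensities of the 2 groups. Where an array of the lower group lay below an intensity of 50 the fold is a lower bound against 50. Replicate arrays of a group correlated with r between 0.995 and 0.996 across probes, and the median standard error (SE) of a log2 fold change was 0.081 over the genes. Before normalization the 75th percentile of intensity was 319 and 311 on the shDab2 PBS arrays and 231 and 223 on the shDab2 LPS arrays. The sources used here do not say whether replicate arrays came from separate cultures, so the p-values measure the spread between these arrays only, which may be technical.

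The Dab2 probe was dim in all groups. It read 91.1 and 88.1 on the shLuc PBS arrays, 52.2 and 72.4 on the shLuc LPS arrays, 59.1 and 76.0 on the shDab2 PBS arrays and 39.1 and 34.8 on the shDab2 LPS arrays. Within each treatment the shDab2 arrays lay below the shLuc arrays. The paper reports from a Western blot that Dab2 protein was reduced in shDab2-B cells, and the size of that reduction cannot be read from this RNA probe. With LPS in shDab2 cells Dab2 fell by 0.43 ± 0.12 (SE, n = 2 arrays per group) on the log2 scale (adjusted p = 0.017). That call was lost, with an adjusted p of 0.17, without shDab2 CTL replicate 2, at 0.072 without shDab2 LPS 6 h replicate 2, and at 0.056 with 75th-percentile scaling, in which every array was brought to one 75th percentile in place of quantile normalization. The location of the gene was chr15:6299788-6440715 (mouse genome build GRCm38.p6, RefSeq annotation).

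LPS moved a large share of the genes of shDab2 cells. Of the 19084 genes, 2566 rose (13.4%) and 3442 fell (18%) at an adjusted p under 0.05 in limma, and the median log2 fold change of all genes was -0.002. Over all 26423 probes of the array the counts were 3126 higher (11.8%) and 3992 lower (15.1%). Another scaling moved this split. Without normalization between arrays 1510 probes were higher and 7401 lower, and with 75th-percentile scaling 3831 were higher and 3284 lower. The rises were larger than the falls. Among called genes 536 rose and 489 fell by more than 1 on the log2 scale, 182 rose and 40 fell by more than 2, and 69 rose and 7 fell by more than 3. No gene fell by more than 4, and 28 rose by more than that. Both LPS arrays lay above both PBS arrays for 5438 genes (28.5%) and below them for 6033 (31.6%). A total of 9013 genes stayed below an intensity of 50 on all 4 shDab2 arrays, which left little signal to compare.

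**Figure D1:**
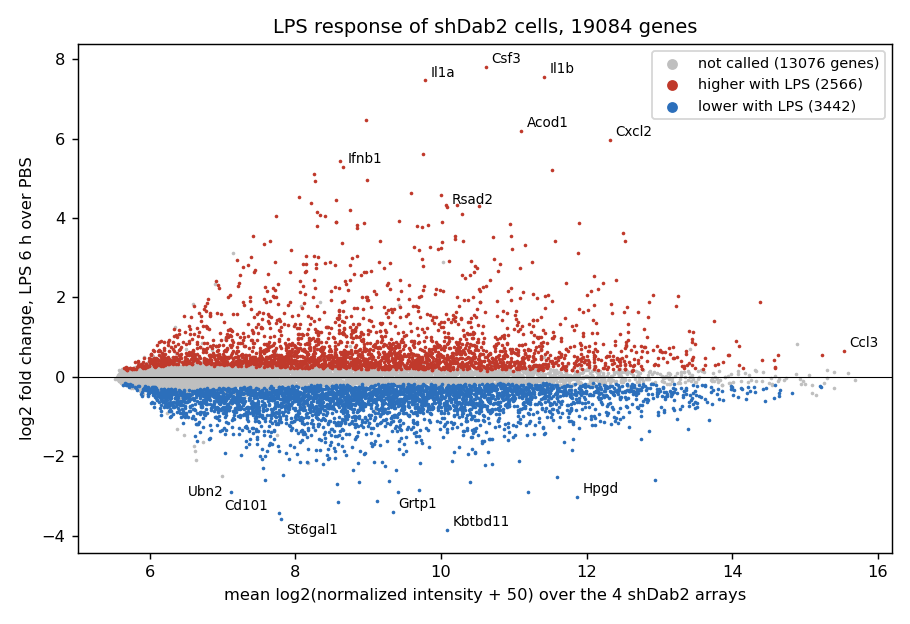
Log2 fold change of each of the 19084 genes in shDab2 cells (LPS 6 h over PBS, vertical axis) against its mean log2(normalized intensity + 50) over the 4 shDab2 arrays (horizontal axis); red genes rose and blue genes fell at an adjusted p under 0.05. The highest points are Csf3, Il1b and Il1a at 7.80, 7.56 and 7.47, while the lowest, Kbtbd11, lies at -3.85.

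The 3 largest rises were of secreted cytokines. Csf3 encodes G-CSF, which drives neutrophil production, and lies at chr11:98700183-98703631. It read 55.8 and 54.8 with PBS and 24026 and 22931 with LPS, a 425-fold rise (log2 fold change 7.80 ± 0.06, adjusted p = 1.7e-14). Il1b, the gene of the pyrogenic cytokine IL-1β at chr2:129364569-129371164, went from 151 and 147 to 36890 and 38232, or 252-fold (7.56 ± 0.05, adjusted p = 1.7e-14). Its neighbour Il1a at chr2:129299609-129310186 encodes IL-1α and read 15.2 and 16.6 with PBS against 11846 and 11447 with LPS, which is at least 233-fold (7.47 ± 0.07). None of these genes had overlapping values between PBS and LPS, which was a condition for picking the largest rises. The PBS level of Csf3 lay just above 50.

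Cytokine genes as a group moved in one direction. Of 28 measured, 21 rose, none fell and 7 did not pass the test, with a median log2 fold change of 1.49. The colony-stimulating factor gene Csf2, which encodes GM-CSF, read 5.9 and 1.0 with PBS and 4417 and 4943 with LPS, at least 93.4-fold higher. Lif and Tnfsf15, which encode a cytokine of the IL-6 family and the TNF-family ligand TL1A, rose at least 34.8-fold and at least 55.2-fold. Il6, the acute-phase cytokine, read 2.5 and 7.8 with PBS and 1148 and 1307 with LPS, a rise of at least 24.5-fold (log2 fold change 4.53 ± 0.10, adjusted p = 5.5e-11). Tnf, the early inflammatory cytokine, went from 224 and 284 to 5199 and 5046, a 20.3-fold rise. Il1rn, which encodes the antagonist of the IL-1 receptor, rose at least 28.1-fold, and Osm and Il27 rose 11.3-fold and 14-fold.

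Some cytokines known from other LPS-treated phagocytes were not called here. Il12b, the p40 subunit of IL-12 and IL-23, read 4.4 and 3.5 with PBS and 5.4 and 4.4 with LPS, below 50 on all 4 arrays. Il10, an anti-inflammatory cytokine, read 54.9 and 38.1 against 62.6 and 65.5 (log2 fold change 0.25 ± 0.19, adjusted p = 0.45). The LPS arrays of Il10 lay above its PBS arrays, but by less than the error of the fit allowed to call.

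**Figure D2:**
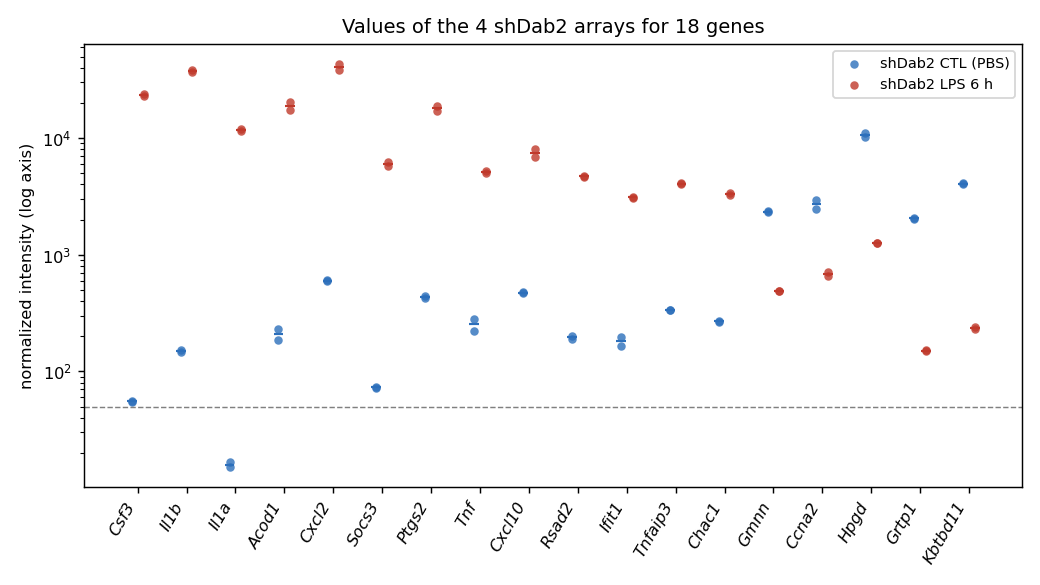
Normalized intensity (log axis) of 18 genes on the 2 shDab2 PBS arrays (blue) and the 2 shDab2 LPS arrays (red); points are single arrays, short bars their means, and the dashed line is the level of 50 used for lower bounds. The values of PBS and LPS arrays do not overlap for any gene shown, which was a condition for picking the largest rises and falls. Gmnn, Ccna2, Hpgd, Grtp1 and Kbtbd11 on the right are the genes that fell.

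Chemokines, which draw leukocytes to a site of infection, rose in 16 of 20 cases, with none lower and a median of 1.63. Cxcl2, which draws neutrophils and lies at chr5:90903899-90905938, read 593 and 603 with PBS and 38232 and 43023 with LPS, a 67.8-fold rise (5.97 ± 0.06, adjusted p = 2.7e-13). The monocyte attractants Ccl7 and Ccl2 rose at least 27.8-fold and 12.8-fold, Ccl2 from 1613 and 1576 to 19967 and 20730. The interferon-responsive T cell attractants Cxcl10 and Ccl5 rose 15.7-fold and 10.8-fold, while Cxcl9 and Cxcl11 did not pass the test, at log2 fold changes of 0.12 and 0.49. Ccl3 and Ccl4, the macrophage inflammatory proteins, were already bright with PBS. Ccl3 read 37402 and 38232 with PBS and 54201 and 65469 with LPS, and the last value is the top of the scanner's scale. Its rise was 0.66 ± 0.17 on the log2 scale (adjusted p = 0.012). The call was lost without normalization (0.078), with a robust variance (0.16) and with the methods' t-test (0.17). The call was also lost without shDab2 LPS 6 h replicate 2, where the rise was 0.52. Without shDab2 CTL replicate 1 the call was lost too, with a rise of 0.64.

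Enzymes and secreted proteins of inflammation rose in 15 of 24 cases and fell in 2, with a median of 0.73. Acod1, whose product makes the antimicrobial metabolite itaconate, went from 231 and 184 to 17276 and 20429, or 91.1-fold. Ptgs2, the inducible cyclooxygenase of prostaglandin synthesis, rose 41.6-fold from 422 and 443 to 17176 and 18825. Serpinb2 and Lcn2, which encode a plasminogen activator inhibitor and an iron-siderophore binding protein, rose at least 50.7-fold and at least 33.1-fold from values of 10 or less with PBS. Nos2, the inducible nitric oxide synthase, rose at least 34.1-fold. Alox5, the 5-lipoxygenase that makes leukotrienes, fell 3.83-fold from 544 and 545 to 149 and 136. Hpgd, which encodes the enzyme that inactivates prostaglandins, was outside that list and fell 8.41-fold, from 10967 and 10208 to 1268 and 1250 (-3.02 ± 0.06, adjusted p = 2.3e-11). The synthetic enzyme Ptgs2 and the degrading enzyme Hpgd of the same pathway thus moved in opposite directions on all 4 arrays.

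NF-kB subunits and inhibitors, the genes by which the pathway feeds back on itself, rose in 14 of 16 cases, and 1 fell, with a median of 1.46. Nfkbiz, a nuclear cofactor of NF-kB, rose 18.2-fold from 220 and 213 to 3860 and 4026. Tnfaip3, the ubiquitin-editing inhibitor of NF-kB, rose 12.1-fold from 334 and 338 to 4039 and 4096 (3.42 ± 0.05, adjusted p = 4.3e-12). Nfkbia, which encodes the inhibitor IκBα, rose 2.66-fold from an already high level, 9155 and 7801. The subunit genes Rel and Nfkb2 rose by 2.65 and 1.78 on the log2 scale, and Rela, the gene of p65, stood at 0.17 and did not pass the test. Cyld, a deubiquitinase that restrains NF-kB, fell by 0.81. The promoter of Tnfaip3 is shown because it has the largest rise of this group with an entry in the RefSeq promoter table (GRCm38.p6, chr10:19015361-19015660, minus strand, from 250 bases before to 50 bases after the gene's start). Capitals mark its 2 matches to the kB motif, the binding sequence of NF-kB, found on either strand.
Tnfaip3: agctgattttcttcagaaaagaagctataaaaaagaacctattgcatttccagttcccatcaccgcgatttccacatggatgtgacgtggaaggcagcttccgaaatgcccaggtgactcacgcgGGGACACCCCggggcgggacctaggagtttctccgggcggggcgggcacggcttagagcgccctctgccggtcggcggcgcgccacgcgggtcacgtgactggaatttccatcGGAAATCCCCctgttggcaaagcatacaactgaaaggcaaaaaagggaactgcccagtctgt
A kB match lay in 10 of the 14 promoters available for the NF-kB group (71.4%), against 4.35% of all 27025 promoters in the table. The share was 35.7% for 14 chemokines, and a match lay in 4 of 20 cytokine promoters. The Il1b promoter, the one with the largest rise among the cytokines with an entry, held no match to any of the 6 motifs searched in these 300 bases and is not printed.

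Feedback on the receptor and on mRNA stability was also among the rises. In a mixed list of 14 genes 11 rose and 2 fell, with a median of 1.78. It held inhibitors of signaling and mRNA decay factors, and also Nlrp3, Casp1, Gpr84, Tnfaip2, Sqstm1 and Pde4b. Socs3, an inhibitor of cytokine receptor signaling, read 74.1 and 71.6 with PBS and 6209 and 5793 with LPS, 82.3-fold higher. Irak3, a pseudokinase that damps TLR signaling, rose 5.08-fold, and Pde4b, a phosphodiesterase that degrades cAMP, rose 11.5-fold. The mRNA decay factors of the TTP family moved apart: Zfp36 rose by 2.93 on the log2 scale, while Zfp36l1 and Zfp36l2 fell by 0.53 and 1.63.

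A list of 19 genes held AP-1, EGR and ATF transcription factors, and also Klf2, Klf4, Klf6, Nr4a1 and Ier2. Of these 19 genes 14 rose and 1 fell at this 6 h time point, with a median of 0.92. Fosl1 and Junb, both AP-1 subunits, rose 8.07-fold and 5.25-fold, whereas Fos stood at 863 and 814 with PBS and 934 and 963 with LPS (adjusted p = 0.071). The stress factor Atf3 rose by 1.97. Klf4, a Krüppel-like factor, fell 2.99-fold and was the 1 gene of the list that fell. Among 9 MAP kinase phosphatases, which switch the MAP kinases off, 5 rose and 1 fell, beside 13.4% and 18% of all genes. The 1 that fell, Dusp14, went from 83.8 and 81.1 to 44.4 and 54.2 (log2 fold change -0.42). Its call was lost with the methods' t-test (adjusted p = 0.14). It was also lost without shDab2 CTL replicate 1 (-0.40), shDab2 CTL replicate 2 (-0.43) or shDab2 LPS 6 h replicate 1 (-0.35). Dusp5 rose at least 8.59-fold and Dusp16 rose 9.24-fold, and Dusp1 read 70.6 and 76.0 against 70.4 and 74.1.

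Genes of the receptor and its adaptors moved mostly upwards. Of 17 measured genes 11 rose and 2 fell, with a median of 0.53. Tlr4 went from 288 and 307 to 550 and 529, a 1.81-fold rise (0.76 ± 0.07, adjusted p = 4.7e-06). Cd14, the LPS co-receptor, read 22931 and 22429 with PBS and 43023 and 37402 with LPS, and the arrays did not overlap, but the test did not call it (0.82 ± 0.31, adjusted p = 0.081). The shLuc LPS arrays, which enter the same estimate of the spread, read 51011 and 19250. In a fit of the 4 shDab2 arrays alone the adjusted p was 7.9e-05. Ikbke, the gene of IKKε, rose 12.6-fold from 479 and 416 to 5524 and 5747. Myd88, Tbk1 and Ticam1, which encodes TRIF, rose by 0.77, 0.69 and 0.50. Ticam2, the gene of the bridging adaptor TRAM, fell 1.97-fold from 490 and 471 to 231 and 259, and Irak1 fell 1.58-fold. The genes for the 2 adaptors of the endosomal branch thus moved in opposite directions.

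Ifnb1, the gene of interferon β at chr4:88522025-88522794, read 12 and 16.2 with PBS and 2499 and 2432 with LPS, at least 49.3-fold higher (5.29 ± 0.07, adjusted p = 1.9e-12). Of 30 antiviral interferon-stimulated genes 29 rose and none fell, with a median of 1.84, and all 9 interferon-inducible GTPases rose, with a median of 1.88. These directions were the same in the fit without normalization (28 and 9 higher) and with 75th-percentile scaling (29 and 9). Rsad2, which encodes the antiviral enzyme viperin, went from 190 and 203 to 4736 and 4641, or 23.9-fold (4.27 ± 0.06). Ifit1 and Ifit2, which bind viral RNA, rose 17.3-fold and 8.26-fold, and Isg15, a ubiquitin-like protein, rose 7.87-fold. Oas1g stayed below 50 on all 4 arrays. Gbp2b, a guanylate-binding protein of cell-autonomous defence, went from 84.9 and 70.4 to 1861 and 1803, or 23.7-fold, and Gbp3 rose 8.95-fold. A list of 19 genes held interferon regulatory factors and STATs, and also Socs1, Socs3, Cish, Ifnar1, Ifnar2 and Ifnb1. Of these 19 genes 10 rose, 1 fell and 8 did not pass the test, with a median of 0.22. Among them Irf7 and Stat2 rose by 1.63 and 1.66, Irf1 did not pass the test at 0.22, and Irf3 fell by 0.32.

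The promoters of Rsad2 and Gbp2b are shown as those with the largest rise in each of these groups (RefSeq, GRCm38.p6: Rsad2 at chr12:26456403-26456702, minus strand, and Gbp2b at chr3:142594597-142594896, plus strand). Capitals mark the match to the core of the interferon-stimulated response element (ISRE), which is GAAA followed after any 2 bases by a further GAAA, searched on both strands. In both promoters it lies on the opposite strand, 120 and 137 bases before the gene's start.
Rsad2: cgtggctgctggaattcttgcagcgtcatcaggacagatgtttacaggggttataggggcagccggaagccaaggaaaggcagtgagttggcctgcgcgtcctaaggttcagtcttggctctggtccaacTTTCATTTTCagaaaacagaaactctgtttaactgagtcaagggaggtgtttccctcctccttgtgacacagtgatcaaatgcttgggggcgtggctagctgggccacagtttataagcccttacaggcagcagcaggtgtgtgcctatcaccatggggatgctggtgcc
Gbp2b: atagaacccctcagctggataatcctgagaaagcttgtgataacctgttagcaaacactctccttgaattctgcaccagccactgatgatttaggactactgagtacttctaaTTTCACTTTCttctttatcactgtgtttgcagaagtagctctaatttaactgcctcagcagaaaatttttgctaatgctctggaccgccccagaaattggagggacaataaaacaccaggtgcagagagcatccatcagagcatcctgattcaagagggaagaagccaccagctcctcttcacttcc
An ISRE match lay in all 8 GTPase promoters with an entry and in 9 of 20 promoters of the antiviral group (45.0%), against 3.49% of all promoters. It lay in none of the 14 promoters of the NF-kB group.

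**Figure D3:**
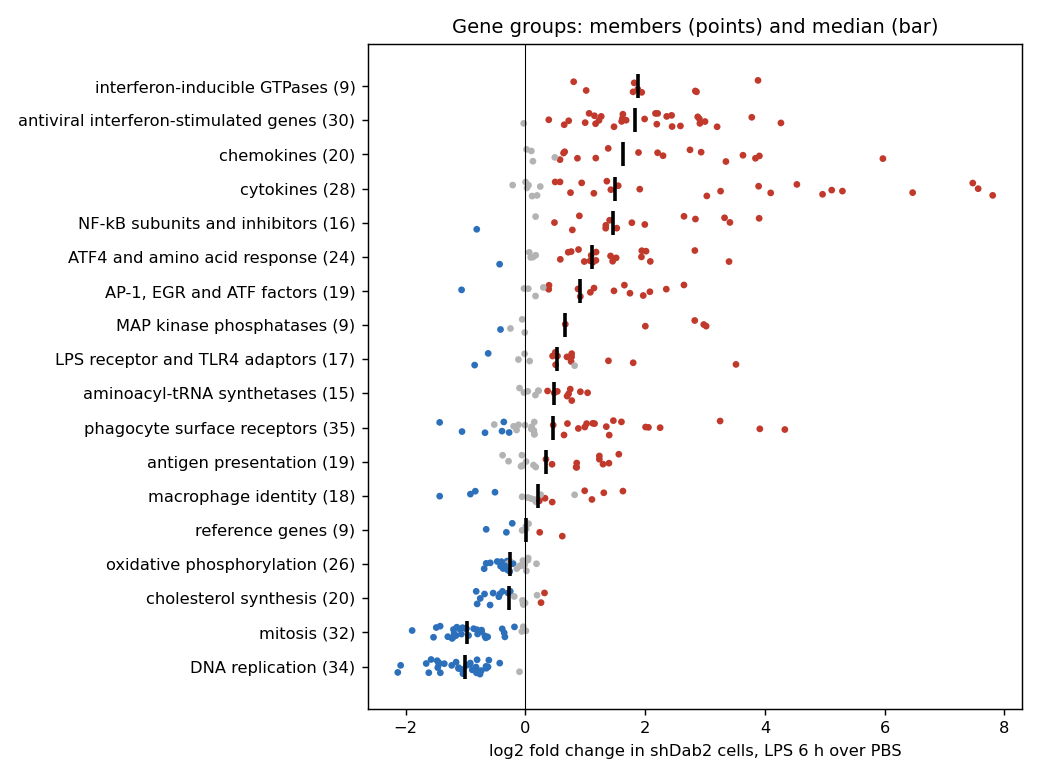
Log2 fold change of the members of 18 gene groups in shDab2 cells (horizontal axis, LPS 6 h over PBS; number of measured genes in parentheses); red points rose, blue points fell, grey points did not pass the test, and the black bar is the median. The medians run from 1.88 for the interferon-inducible GTPases to -1.01 for DNA replication; those of macrophage identity (0.20) and reference genes (0.01) were below 0 without normalization between arrays (-0.01 and -0.19).

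Genes of antigen presentation and co-stimulation rose in 10 of 19 cases, with none lower and a median of 0.34; without normalization 8 rose and 1 fell. Cd83 and Tap1, a maturation marker and a peptide transporter, rose 3.10-fold and 2.69-fold. Cd80 and Cd86, which co-stimulate T cells, rose by 1.23 each from values below 50 with PBS. The class II genes H2-Aa and H2-Ab1 and their activator Ciita did not pass the test, at -0.28, -0.06 and -0.06.

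Surface receptors of phagocytes rose in 18 of 35 cases and fell in 6, beside 13.4% and 18% of all genes, with a median of 0.46. Ccrl2, an atypical chemokine receptor, rose 24.6-fold from 218 and 213 to 5382 and 5209. Fcgr2b, the inhibitory Fcγ receptor, rose 20.6-fold, from 122 and 132 to 2693 and 2535, while the activating receptor gene Fcgr3 fell 3.11-fold, from 661 and 641 to 191 and 230. Pilra, an inhibitory receptor, rose at least 4.57-fold. Clec4e, the C-type lectin Mincle, rose 11-fold, and Tlr2 rose 2.91-fold. Trem2, a lipid-sensing receptor, fell 2.10-fold, from 6179 and 6006 to 2816 and 2978.

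A group of stress genes also rose, and in shLuc cells 16 of its 24 genes rose and 1 fell. Of 24 genes of ATF4 and the amino acid response, which restore amino acid supply when it is short, 19 rose and 1 fell, with a median of 1.11; the counts were 19 and 0 with 75th-percentile scaling and 19 and 1 without normalization. Chac1, an enzyme that breaks down glutathione, read 264 and 271 with PBS and 3360 and 3252 with LPS, 12.3-fold higher (3.40 ± 0.06, adjusted p = 7.9e-12). Trib3, a pseudokinase, rose 10.5-fold, from 94.9 and 84.3 to 970 and 913. The cystine transporter gene Slc7a11 rose 4.63-fold and Asns, the asparagine synthetase, rose 2.19-fold to 16641 on both LPS arrays. Atf4 itself rose by 0.58. Psat1, an enzyme of serine synthesis, was the one that fell, by 0.43, and it did not pass the test with 75th-percentile scaling. Of 15 aminoacyl-tRNA synthetase genes, which charge tRNAs with amino acids, 9 rose and none fell; without normalization 8 rose and 3 fell. Chaperones of the endoplasmic reticulum had no common direction, with 4 of 18 higher and 5 lower (3 and 9 without normalization). Over all genes 13.4% rose and 18% fell. Herpud1, a component of protein degradation there, rose 3.10-fold, while Xbp1 and Sdf2l1 fell by 0.41 and 0.71. The promoter of Chac1 (RefSeq, GRCm38.p6, chr2:119350992-119351291, plus strand) is shown because its gene rose most in the group. Capitals mark its match to the C/EBP-ATF response element (TGATGNAA, both strands searched), on the opposite strand, 193 bases before the start.
Chac1: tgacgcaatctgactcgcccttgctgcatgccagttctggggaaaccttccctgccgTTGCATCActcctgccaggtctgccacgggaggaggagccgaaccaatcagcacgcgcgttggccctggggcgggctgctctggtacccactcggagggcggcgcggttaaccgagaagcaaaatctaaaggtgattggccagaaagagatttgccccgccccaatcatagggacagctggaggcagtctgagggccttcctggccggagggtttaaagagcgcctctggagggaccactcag
Such a match on either strand lay in 6 of 20 promoters of the ATF4 group (30.0%) and in 4.06% of all promoters.

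The largest falls came from genes with few shared roles. Kbtbd11, a kelch-repeat protein gene at chr8:15011025-15033333, read 4143 and 4009 with PBS and 232 and 240 with LPS, a 17.3-fold fall (-3.85 ± 0.08, adjusted p = 3.4e-11). Grtp1, which encodes a TBC-domain protein at chr8:13176869-13200766, fell 13.7-fold, from 2029 and 2084 to 152 and 149. St6gal1, the sialyltransferase that caps N-glycans, read 698 and 753 with PBS and 2.5 and 29.0 with LPS, at least 14.5-fold lower. Cd101, an inhibitory surface receptor, fell at least 13.3-fold, and Angpt2, the vessel-destabilizing ligand of TIE2, fell 11.6-fold. Scel and Serpinb8, which encode sciellin and an intracellular serpin, fell 14-fold and 9.27-fold. For each of these genes both LPS arrays lay below both PBS arrays. That order was a condition for picking the largest falls and adds no evidence. The fall of Ubn2 was less certain: its probe read 342 and 319 with PBS and 1.0 and 0.2 with LPS, but -2.0 and 199 on the shLuc PBS arrays. Its adjusted p of 0.011 became 0.18 with a robust variance, 0.053 without shDab2 CTL replicate 1, 0.060 without shDab2 LPS 6 h replicate 1 and 0.057 without shDab2 LPS 6 h replicate 2.

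Genes of the cell cycle fell together. Of 34 DNA replication genes 33 fell and none rose, with a median of -1.01, and of 32 mitosis genes 29 fell and none rose, with a median of -0.97. The fall held with 75th-percentile scaling (32 and 27 lower) and without normalization (33 and 29 lower). Gmnn, which encodes the replication licensing inhibitor geminin, went from 2347 and 2301 to 491 and 491, a 4.73-fold fall (-2.13 ± 0.06, adjusted p = 5.1e-10). Ccne2 and Ccna2, the cyclins of entry into and passage through S phase, fell 5.87-fold and 3.91-fold. All 6 subunits of the MCM helicase measured fell, with Mcm7 going from 3424 and 3367 to 1163 and 1235. Mki67, a marker of proliferating cells, fell 2.35-fold, from 3441 and 3418 to 1394 and 1525. Foxm1, the transcription factor of the G2 programme, fell 3.42-fold and Aurkb, the kinase of the chromosomal passenger complex, fell 2.89-fold. Cdc6 was below 50 on all 4 arrays, and Cep55, Kif20a and Nuf2 did not pass the test. In these bulk samples a smaller share of cycling cells and less mRNA per cycling cell cannot be told apart.

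The promoters of Uhrf1 and Spc25 are shown because they have the largest fall with an entry among the replication and the mitosis genes (RefSeq, GRCm38.p6). Uhrf1, the factor that recruits maintenance DNA methylation, fell by 1.66 and its promoter lies at chr17:56303087-56303386, plus strand. Spc25, a subunit of the kinetochore complex NDC80, fell by 1.43 and its promoter lies at chr2:69206164-69206463, minus strand. Capitals mark an E2F site (TTTNNCGC) in Uhrf1, and in Spc25 a pair of CCAAT boxes (CCAAT) and the cell cycle homology region (TTTGAA), which overlaps a match to the ISRE core; both strands were searched.
Uhrf1: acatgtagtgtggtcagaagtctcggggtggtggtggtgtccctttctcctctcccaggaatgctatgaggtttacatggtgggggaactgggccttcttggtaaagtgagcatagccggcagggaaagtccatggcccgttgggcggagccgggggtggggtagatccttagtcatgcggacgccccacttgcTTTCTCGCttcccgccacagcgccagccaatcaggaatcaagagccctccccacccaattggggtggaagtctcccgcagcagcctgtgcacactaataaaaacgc
Spc25: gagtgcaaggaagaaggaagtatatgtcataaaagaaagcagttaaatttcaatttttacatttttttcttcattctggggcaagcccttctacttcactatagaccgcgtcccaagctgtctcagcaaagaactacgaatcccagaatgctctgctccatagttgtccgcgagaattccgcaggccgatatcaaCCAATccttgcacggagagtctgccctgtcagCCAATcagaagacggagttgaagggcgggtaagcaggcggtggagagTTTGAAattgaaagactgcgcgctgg
An E2F site lay in 44.4% of 27 replication promoters and in 7.69% of 26 mitosis promoters, against 5.27% of all promoters. The order was turned for the cell cycle homology region, with 73.1% of the mitosis promoters and 11.1% of the replication promoters against 18.1% of all. CCAAT boxes lay in 59.3% and 69.2%, against 37.9%. Of the measured genes with a promoter, 6.98% held an E2F site and 14.2% the cell cycle homology region. These groups are lists by role and not by response. Genes higher by more than 2 on the log2 scale held a kB match in 10.8% and an ISRE match in 12.9% of 139 promoters. Those lower by more than 1.5 held an E2F site in 11.8% and the cell cycle homology region in 20.6% of 102. A match is a stretch of letters and not a measured binding site.

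**Figure D4:**
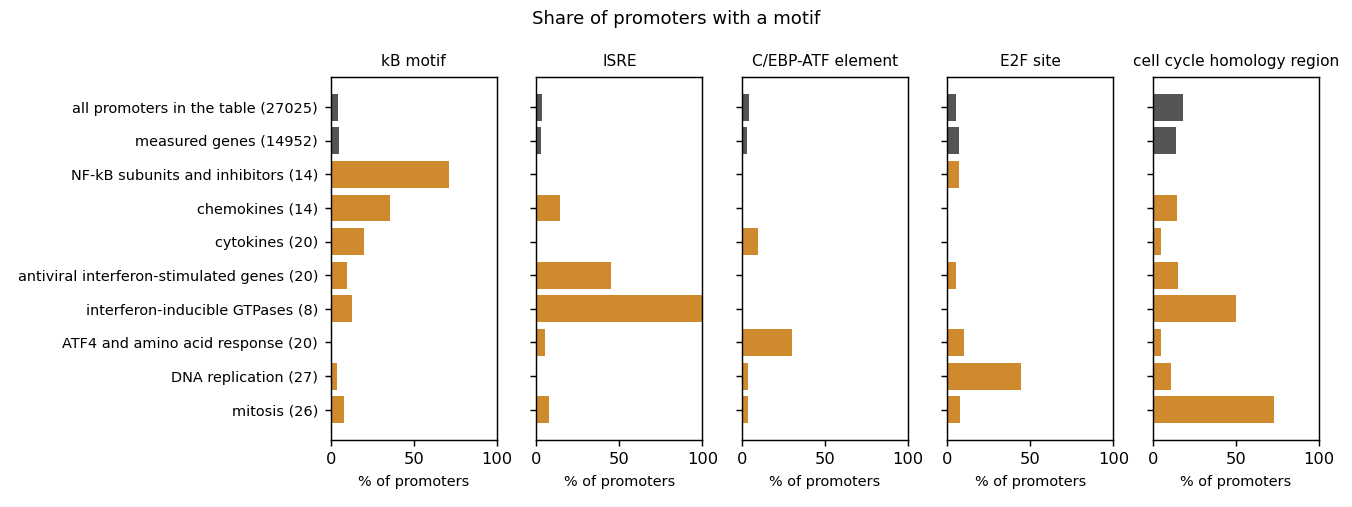
Share of promoters (horizontal axes, percent, 0 to 100) with at least 1 match to each of 5 motifs, for all promoters in the table and all measured genes (grey) and for 8 gene groups (orange; number of promoters in parentheses). The highest share of each motif lies in another group: 71.4% in the NF-kB group for the kB motif, all 8 promoters of the GTPases for the ISRE, 30.0% in the ATF4 group for the C/EBP-ATF element, 44.4% in DNA replication for the E2F site and 73.1% in mitosis for the cell cycle homology region.

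Metabolic groups moved little, and their balance followed the scaling. The shares over all genes, for comparison, were 13.4% higher and 18% lower. Oxidative phosphorylation had 14 of 26 genes lower and none higher, with a median of -0.26, but 4 lower and 1 higher with a median of -0.01 with 75th-percentile scaling. The cholesterol synthesis list also held the fatty acid genes Fasn, Scd1, Scd2, Fads1 and Fads2, the sterol transport gene Stard4 and the regulators Insig1 and Srebf2. It had 11 of 20 genes lower and 2 higher (median -0.27), and 7 lower and 4 higher with 75th-percentile scaling. Glycolysis and hypoxia genes had 7 of 21 higher and 2 lower, against 12 and 2 with 75th-percentile scaling and 5 and 6 without normalization. Single genes moved more. The glucose transporter gene Slc2a1 rose 4.33-fold from 1415 and 1256 to 5725 and 5821, and Vegfa, the angiogenic factor, rose 2.78-fold. Hmox1, the haem-degrading enzyme, rose 3.59-fold among 15 Nrf2 target genes of which 6 rose and 2 fell (4 and 5 without normalization). The cholesterol exporters diverged: Abcg1 fell 4.53-fold, from 931 and 888 to 195 and 206, whereas Abca1 rose 2.24-fold, from 279 and 260 to 590 and 617. Of 17 p53 target genes 6 rose and 8 fell. Gadd45a, a stress gene that other factors also induce, rose 25.4-fold from 186 and 190 to 4874 and 4662, Sesn1 fell 4.09-fold and Trp53inp1 fell at least 5.75-fold.

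Of 18 macrophage identity genes, 17 read 50 or more on both PBS arrays and 17 on both LPS arrays. The summed level of the list was 104926 and 103557 with PBS and 129420 and 125000 with LPS. Without Cd14, which was not called, it was 81995 and 81128 with PBS and 86397 and 87598 with LPS. Of the 18 genes 7 rose and 4 fell, beside 13.4% and 18% of all genes, and without normalization 6 rose and 6 fell. The integrin genes Itgam and Itgb2, the chains of CD11b/CD18, rose 3.22-fold and 2.56-fold, and Adgre1, the gene of F4/80, rose by 0.99. Csf1r, the receptor of the growth factor M-CSF, fell from 11977 and 10868 to 6396 and 6327, the myeloid transcription factor gene Cebpa fell 2.33-fold and Fcgr3 fell 3.11-fold. Most markers of other cell types were below 50. All 10 fibroblast and epithelial markers, 8 of 9 neutrophil and mast cell markers, 7 of 10 lymphocyte markers and 7 of 9 dendritic cell markers stayed below 50 on all 4 shDab2 arrays. Their summed levels, with PBS and then with LPS, were 51.9 to 58.1 and 34.6 to 50.1 for the first list, 179 to 188 and 220 to 309 for the second, and 211 to 242 and 273 to 394 for the third. The dendritic list went from 335 and 371 to 1021 and 992, and in it Itgax, the gene of CD11c, which macrophages also express, went from 219 and 253 to 919 and 902 (3.87-fold). In the lymphocyte list Cd79a, a chain of the B cell receptor, was called higher, from 39.8 and 46.6 to 101.6 and 71.6 (log2 fold change 0.54, adjusted p = 0.0082), and lost that call without shDab2 CTL replicate 1 (0.068), without shDab2 LPS 6 h replicate 1 (0.071), without normalization (0.082) and with the methods' t-test (0.26). Osteoclast genes, for which RAW264.7 cells are a common precursor model, moved both ways: Mmp9 rose at least 26.7-fold, Dcstamp rose 2.80-fold and the master factor Nfatc1 fell by 1.88 on the log2 scale, from 668 and 668 to 155 and 136.

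The shLuc arrays asked where the response of shDab2 cells differed from that of cells with a control hairpin. Of the genes that rose in shDab2 cells 1703 also rose in shLuc cells, which is 66.4% of the 2566 and 77.2% of the 2205 that rose there (11.6% of all genes). Of the falls 2488 were shared, 72.3% of the 3442 and 83.1% of the 2995 in shLuc cells (15.7%). The 2 responses were measured on separate arrays. The difference between them was tested for each gene and passed for 519 genes with the response shifted upwards in shDab2 cells (2.72%) and 587 shifted downwards (3.08%). Over all probes the counts were 612 (2.32%) and 651 (2.46%), and without normalization 447 and 1968. The downward count fell to 386 without shDab2 CTL replicate 1, 413 without shDab2 CTL replicate 2, 363 without shLuc CTL replicate 1 and 427 without shLuc LPS 6 h replicate 2. The shift touched the groups unequally. It was upwards in 27 of 30 antiviral genes, 8 of 9 GTPases, 14 of 28 cytokines, 14 of 24 genes of the ATF4 group and 8 of 20 chemokines, and downwards in 13 of 32 mitosis genes, 8 of 34 replication genes and 2 of 20 chemokines. The groups' median log2 fold changes in shLuc cells were 0.71 for the antiviral genes, 0.74 for the GTPases, 0.81 for the cytokines, 0.64 for the ATF4 group, -0.59 for mitosis and -0.73 for replication.

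**Figure D5:**
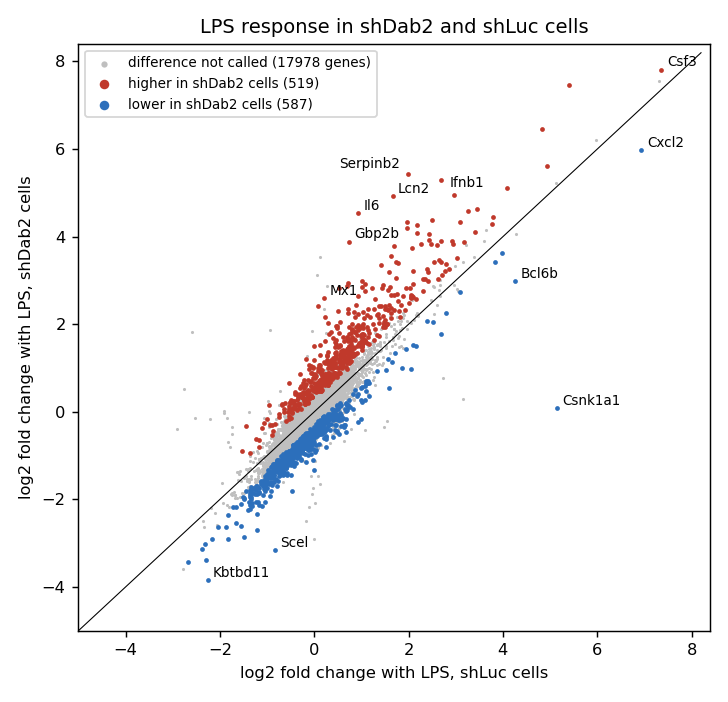
Log2 fold change with LPS in shDab2 cells (vertical axis) against that in shLuc cells (horizontal axis) for 19084 genes, each on 4 arrays; red and blue genes had a difference between the responses with an adjusted p under 0.05, and the line marks equal responses. Il6 (4.53 against 0.93), Serpinb2 (5.44 against 1.99) and Lcn2 (4.92 against 1.66) lie far above the line, and Csnk1a1 (0.08 against 5.15) lies far below it.

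A difference in response can sit in the LPS arrays or in the PBS arrays, and the gene groups differed in this. Of the 519 genes shifted upwards, 260 (50.1%) had shDab2 LPS arrays above the shLuc LPS arrays but not shDab2 PBS arrays below the shLuc PBS arrays. The reverse, lower PBS arrays without higher LPS arrays, held for 59 (11.4%), and 200 (38.5%) had both. Over all 19084 genes such orders of the arrays were found in 21.4%, 23.2% and 3.23%. These counts describe genes already chosen for their difference, and no test was made on them. Among the 14 cytokines 12 were higher in shDab2 cells with LPS and not lower with PBS, and 2 were both. Il6 read 49.8 and 48.6 on the shLuc LPS arrays, against 1148 and 1307 in shDab2 cells, with all 4 PBS arrays below 8. Of the 27 antiviral genes 20 were both higher with LPS and lower with PBS in shDab2 cells. Isg15 read 1258 and 1325 on the shLuc PBS arrays and 808 and 870 on the shDab2 PBS arrays, and then 3528 and 3727 against 6804 and 6396 with LPS. In the ATF4 group all 14 were lower with PBS in shDab2 cells and none was higher with LPS. Chac1 read 1226 and 1324 with PBS in shLuc cells and 264 and 271 in shDab2 cells, and with LPS it reached 4468 and 4458 in shLuc cells and 3360 and 3252 in shDab2 cells. The larger fold of Chac1 in shDab2 cells thus went with a lower PBS level and not with a higher LPS level.

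Of the cell cycle genes shifted downwards, 11 of 13 mitosis genes and all 8 replication genes were lower in shDab2 cells with LPS and not higher with PBS, and 2 mitosis genes were both. Aurkb read 2073 and 1916 on the shLuc LPS arrays and 1048 and 1083 on the shDab2 LPS arrays. Cxcl2 was one of the 2 chemokines shifted downwards, with a log2 fold change of 5.97 in shDab2 cells against 6.94 in shLuc cells (difference -0.97 ± 0.09, adjusted p = 1e-04). Its LPS arrays were not lower in shDab2 cells, at 38232 and 43023 against 32851 and 33857, while its PBS arrays were higher, at 593 and 603 against 225 and 220. Ccl2 was the other, with PBS values of 1613 and 1576 against 324 and 345 in shLuc cells. Mx1, an antiviral GTPase, rose at least 8.63-fold in shDab2 cells and did not pass the test in shLuc cells, where it read 51.5 and 54.2 with PBS and 73.2 and 65.8 with LPS (difference 2.37 ± 0.15, adjusted p = 9.2e-06). Plau, the gene of the urokinase plasminogen activator, fell by 0.35 in shDab2 cells and rose by 0.62 in shLuc cells (difference -0.97 ± 0.07, adjusted p = 2.3e-05), although its fall was lost with 75th-percentile scaling. Opposite calls in the 2 lines were rare, at 19 genes that rose and 28 genes that fell in shDab2 cells.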

How the data were processed

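RNA of 8 RAW264.7 samples was labelled with Cy5 and hybridized to one-colour Phalanx mouse OneArray chips. The authors deposited linear, background-subtracted intensity values per array for 26423 probes; a normalization is not given in the sources used here, and the medians (20 to 37) showed none between arrays. A second deposited table of pooled group values was not used. Probe genes came from the platform annotation, in which 82.8% of probes had 1 symbol and 4547 had none. A gene was represented by its brightest probe, 2424 genes had several, and for 16 of these genes probes were called in opposite directions with LPS in shDab2 cells.

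All 8 arrays were quantile-normalized, an offset of 50 was added and log2 was taken. limma 3.58.1 in R 4.3.3 fitted a mean per group (4 residual and 6.7 prior degrees of freedom, variance trend), with two-sided tests and Benjamini-Hochberg adjustment over all 26423 probes and a call at an adjusted p under 0.05. A change in total RNA per cell is removed by such normalization. The number of arrays limits the precision.

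Named genes were the 15 largest called rises and falls whose PBS and LPS arrays did not overlap, the 2 largest of each list in each direction, the 8 largest differences in response each way and genes of the study. Other list members were picked after their values were seen, as was the promoter of Gbp2b. Members and lists were chosen with earlier results of these data known, and list members without a matching probe were not analysed here. Symbols were matched by Entrez ID to RefSeq GRCm38.p6 (21825 of 21876 probes), and promoters were found for 14952 genes, using the first entry of a gene. Alternatives were other scalings, offsets, variance models and filters, a replicate block, leaving out arrays and the methods' t-test. The last is the unpaired t-test that the paper names for its statistics in general. For its arrays the paper gives a log2 ratio criterion and no such test. Run here on 2 arrays per group, without sharing the spread across probes, it has few degrees of freedom.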

Additional observations from a re-analysis of the deposited data

Results flagged for a closer look

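The LPS response of shDab2 cells differed from that of shLuc cells at an adjusted p under 0.05 in limma for 612 probes shifted upwards (2.32% of 26423) and 651 shifted downwards (2.46%). Among the named genes this test passed for 81, and their differences in log2 fold change (shDab2 minus shLuc) follow. Cytokine and chemokine genes were shifted upwards by 3.61 for Il6, 2.62 for Ifnb1, 2.06 for Il1a, 2.0 for Tnfsf15, 1.66 for Ccl5, 1.64 for Csf2, 1.36 for Cxcl10, 1.22 for Ccl7, 1.03 for Lif, 0.97 for Il1rn, 0.69 for Tnf and 0.44 for Csf3. Interferon-induced genes were shifted upwards by 3.14 for Gbp2b, 2.37 for Mx1, 2.09 for Rsad2, 1.85 for Gbp3, 2.09 for Ifit1, 1.84 for Ifit2 and 0.84 for Tap1. Enzymes, inhibitors and secreted proteins were shifted upwards by 3.45 for Serpinb2, 3.26 for Lcn2, 0.95 for Hmox1, 0.69 for Pde4b, 0.65 for Nos2, 0.39 for Vegfa and 0.43 for Lipa. The antisense transcript Il1bos was shifted upwards by 2.34 and the cholesterol exporter gene Abca1 by 0.60. Receptors and surface proteins were shifted upwards by 2.37 for Ccrl2, 1.51 for Pilra, 1.49 for Fcgr2b, 1.19 for Tnfrsf1b, 0.84 for Itgax, 0.58 for Fas, 0.56 for Itgam, 0.56 for Tlr4, 0.52 for Itgb2 and 0.39 for Cd83. Signaling and stress genes were shifted upwards by 1.63 for Chac1, 1.39 for Trib3, 1.32 for Id3, 1.27 for Irak3, 1.24 for Gadd45a, 0.87 for Tnfaip3, 0.81 for Junb, 0.69 for Socs3, 0.58 for Dusp16, 0.54 for Herpud1, 0.50 for Cars, 0.49 for Ikbke and 0.40 for Nars.

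The differences downwards came from several patterns. Genes that fell in shDab2 cells had differences of -2.33 for Scel, -1.59 for Kbtbd11, -1.49 for Serpinb8, -1.37 for Chst1, -1.34 for Trp53inp1, -1.32 for Rab15, -1.09 for Grtp1, -1.09 for Fam13c, -0.78 for Jade1, -0.76 for Angpt2, -0.76 for Ccne2, -0.76 for Cd101, -0.74 for Ranbp3l, -0.71 for Hpgd, -0.68 for Nfatc1, -0.67 for Cebpa, -0.66 for Zfp36l2, -0.62 for Sesn1, -0.59 for Susd3, -0.57 for Fcgr3, -0.55 for Alox5, -0.55 for Car12, -0.54 for Ccna2, -0.53 for Fads1, -0.49 for Irak1 and -0.44 for Abcg1. Of genes that rose in both lines, Cxcl2 differed by -0.97 and Bcl6b by -1.27, and Plau, which moved in opposite directions, by -0.97. Csnk1a1, a casein kinase gene, had the most negative difference of these, -5.07: its probe read -1.0 and 4.4 on the shLuc PBS arrays and between 1720 and 2425 on the other 6 arrays, and it did not pass the test in shDab2 cells (log2 fold change 0.08, adjusted p = 0.5).

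Of the 81 differences, 65 kept their call in all 16 alternatives and 16 lost it in at least 1. The methods' t-test is not among these alternatives, since it was run on the response within each line and not on the difference. Ccna2, Cd83 and Nars lost it in 8, Fas in 7, Fads1, Lipa and Vegfa in 6, Abcg1 and Fcgr3 in 5, Irak1 in 4, Ccne2 and Junb in 3, Cebpa in 2, and Abca1, Cars and Nos2 in 1.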

How the results depend on the processing

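The counts of probes called with LPS in shDab2 cells, 3126 higher and 3992 lower, became 1510 and 7401 without normalization between arrays and 745 and 787 with the methods' t-test; the count of downward differences from shLuc cells, 651, became 1968 without normalization. Leaving out single arrays gave 2465 to 3117 probes higher and 3280 to 4027 lower in shDab2 cells, and 428 to 538 differences upwards and 363 to 608 downwards, the last being 386 without shDab2 CTL replicate 1, 413 without shDab2 CTL replicate 2, 363 without shLuc CTL replicate 1 and 427 without shLuc LPS 6 h replicate 2. The direction changed for Hprt at a common 75th percentile (0.086, adjusted p = 0.51) and for Srebf2 without normalization (-0.10, adjusted p = 0.43). Same-numbered arrays did not deviate together (r = 0.035 in shDab2 cells and -0.020 in shLuc cells), and with the replicate block 3046 probes were higher and 3937 lower, with 567 and 603 differences. The median of all genes was -0.10 without normalization. Over all alternatives the LPS responses of the named genes gave 2207 results on the same side of the threshold, 71 that lost the call, 5 that gained it and the 2 changes of direction, and their differences from shLuc cells gave 1928, 74 and 29 with no change of direction. With the methods' t-test 37 named genes lost their call for the LPS response in shDab2 cells. Among them were Tlr4 (adjusted p = 0.056), St6gal1 (0.069), Angpt2 (0.053) and Mx1 (0.051). The cause of these changes was not tested. Probes below 50 limit what can be seen, and bright probes near the top of the scale understate change.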

Other observations

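Further large changes in shDab2 cells fell outside the lists above or were left out there, and these genes were chosen after their values were seen. The coagulation starter F3, tissue factor, read 14.6 and 15 with PBS and 1343 and 1261 with LPS, at least 26.0-fold higher. Plaur, the urokinase receptor, rose 22.9-fold and Timp1, an inhibitor of matrix metalloproteinases, rose at least 34.8-fold. Myc, a growth transcription factor, rose at least 22.6-fold while the replication and mitosis genes fell, from 25 and 44.4 to 1115 and 1145. Pim1 and Plk2, both serine/threonine kinases, rose 12.7-fold and 13.5-fold. The signaling adaptors Traf1 and Malt1 rose by 3.22 each on the log2 scale. Hdc, which makes histamine, rose at least 25.6-fold, and Hcar2, a receptor for hydroxy acids, rose 17.6-fold.

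Among falls of this kind, Ndrg2 was the brightest of those named here, going from 19033 and 19442 to 3303 and 2946 (6.17-fold). Pdcd4, a translation inhibitor, fell 5.91-fold and Cpt1a, which admits fatty acids to mitochondria, fell by 2.18 on the log2 scale. The class IIa histone deacetylase genes Hdac9 and Hdac5 fell at least 7.38-fold and 4.82-fold, and Mef2c, a transcription factor known to bind such deacetylases, fell 3.34-fold. Fbxo5, an inhibitor of the anaphase-promoting complex, and the repressor gene E2f8 fell 5.55-fold and 5.61-fold. Trex1, a DNA exonuclease, and Il20rb, a cytokine receptor chain, rose by 0.88 and 0.67 on the log2 scale in shDab2 cells and fell by 0.29 and 0.54 in shLuc cells.

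The antisense transcript Il1bos rose by 2.41 in shDab2 cells beside Il1b, from 3.4 and 1.0 to 246 and 211, and whether its probe reads Il1b RNA was not tested.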
